A study of Homo sapiens with 6 samples.

Results

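The 10 genes described here code for carnitine transporters, enzymes of the carnitine shuttle and membrane proteins of the peroxisome. They were chosen by symbol, to set the near loss of SLC22A16 and PXMP4 mRNA after knockdown of EZH2 beside related transporters and shuttle enzymes. All 10 were found among the 58884 genes of the deposited table, and 9 of them were among the 16859 genes that passed an expression filter. CRAT did not pass it. Because the choice used results of the same comparison, the differences of these 10 genes are given as a description, with no p-value.

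Long-chain fatty acids cross the mitochondrial membranes as esters of carnitine, a small zwitterion that most cells take up from outside through transporters of the SLC22 family. CPT1A on the outer mitochondrial membrane makes the acylcarnitine, the carrier SLC25A20 exchanges it for free carnitine across the inner membrane, and CPT2 returns the acyl group to coenzyme A. Peroxisomes shorten very long and branched chains and pass their products to mitochondria, partly as carnitine esters made by CRAT and CROT.

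The samples were of HL-60, a RAS-mutated cell line established from acute myeloid leukemia. EZH2 shRNA cells (3 libraries, numbered 1, 3 and 4) carried a lentiviral short hairpin RNA against EZH2, the catalytic subunit of the Polycomb complex PRC2, which methylates lysine 27 of histone H3. Control shRNA cells (3 libraries, numbered 3, 4 and 5) carried a matching scrambled hairpin. Cells of both groups had been selected with puromycin, which was removed 2 days before the experiment, and were held for 24 hours in RPMI-1640 with 0.05% serum before polyadenylated RNA was sequenced. Per the labels the knockdown is stable and comes from a single hairpin vector, and whether the cells are a pool or a clone is not stated.

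Total counts lay between 50809853 and 85074624 in the EZH2 shRNA libraries and between 39717343 and 51622861 in the controls. EZH2 itself was at 79.98 ± 3.01 CPM (reads of a gene relative to all reads of its library, scaled with TMM factors) in EZH2 shRNA cells and 149.5 ± 1.61 CPM in control cells (SD, n = 3 each), or 53.5% of the control level in the fit. Of all genes tested 46.7% were called at an adjusted p under 0.05, with 23.8% higher and 22.9% lower. Of 8 promyelocytic markers 7 passed the filter, with 4 higher, 1 lower and 2 not called. The granule protease PRTN3 rose most, to 96.5 ± 6.32 CPM in EZH2 shRNA cells, against 21.8 ± 2.69 CPM in control cells (SD, n = 3 each; log2 fold change 2.14, edgeR adjusted p = 1.55e-08). AZU1, MYC and CEBPE rose by 0.69, 0.52 and 0.38 and CTSG fell by 0.22 on the log2 scale (edgeR adjusted p = 1.93e-08, 4.24e-08, 6.13e-07 and 0.000305). The granule enzyme MPO, at 9416 CPM in EZH2 shRNA cells and 9795 CPM in control cells, and CD33 did not pass (edgeR adjusted p = 0.405 and 0.106), and the elastase gene ELANE had 0.145 CPM in EZH2 shRNA cells and 0.0349 CPM in control cells. Markers of other cell types summed to between 3.68 and 4.48 CPM in EZH2 shRNA libraries and between 1.79 and 2.19 CPM in controls, with HBB, COL1A2, EPCAM and CDH5 at 0 throughout. KRT8, at 2.69 CPM in EZH2 shRNA cells and 1.07 CPM in control cells, was the most abundant of these 11 markers. Of the 4 that passed the filter, KRT8 was called higher (log2 fold change 1.32, edgeR adjusted p = 3.72e-05) and 3 were not called. The part of these markers in the results was not tested. In bulk RNA, fewer cells that express a gene and less RNA per cell cannot be told apart.

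SLC22A16 and PXMP4 were nearly lost in EZH2 shRNA cells, SLC22A4 was at 41.8% of its control level, and CPT1A was at 139%. The other 5 genes that passed the filter, SLC22A5, SLC22A15, SLC25A20, CPT2 and PXMP2, differed between the groups by less than 0.11 on the log2 scale, and their libraries overlapped. Of the 9 genes, 1 was higher and 3 were lower at an adjusted p under 0.05 (edgeR quasi-likelihood test, Benjamini-Hochberg adjustment over all genes tested), where 46.7% of all genes tested passed (23.8% higher and 22.9% lower). The same 4 genes had groups that did not overlap in CPM, as did 54.9% of all genes tested. SLC22A16 and PXMP4 were chosen for their near loss, so these counts describe the 9 genes and are no test of them. The median log2 fold change of the 9 genes was -0.03, against 0.01 over all genes tested.

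**Figure D1:**
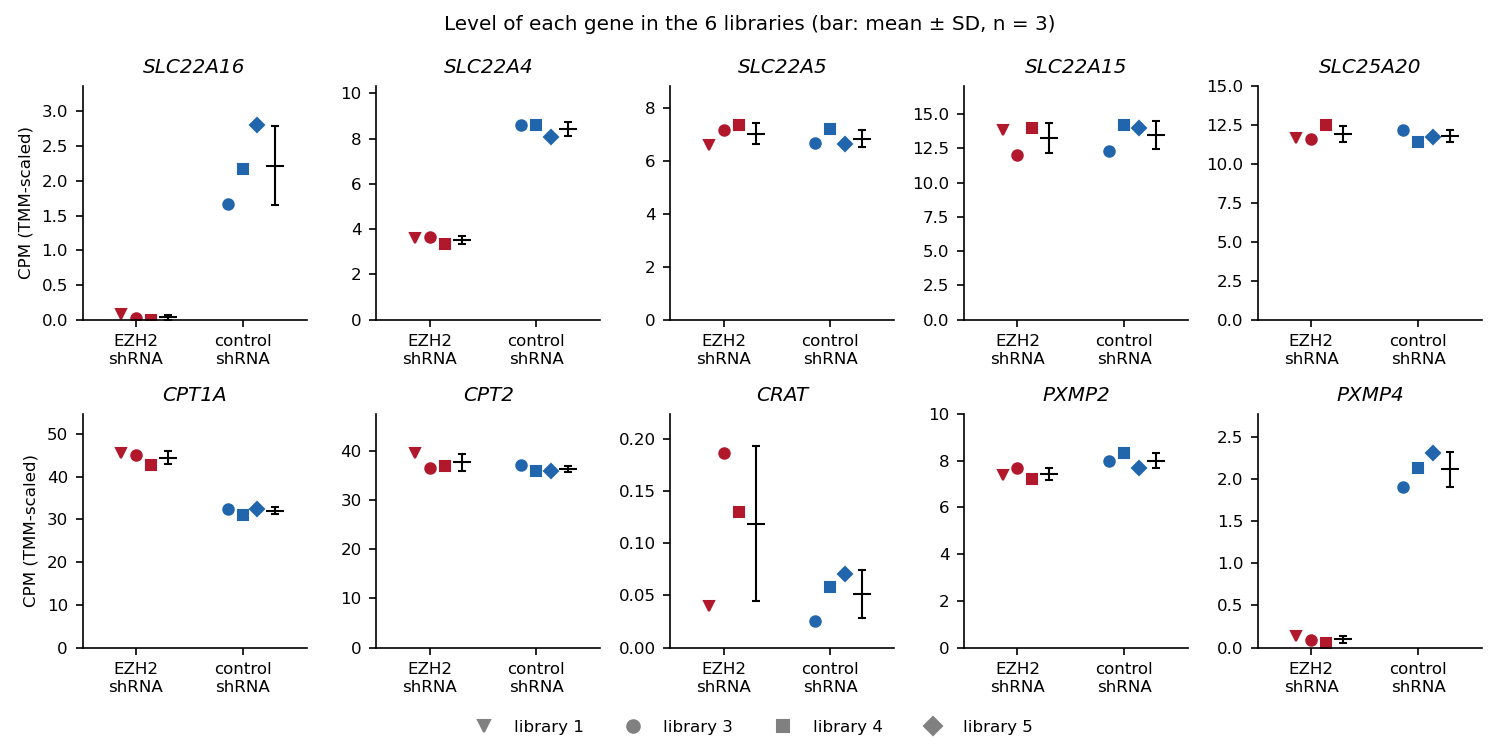
Level of each of the 10 genes in CPM (linear axes from 0, a separate scale per gene) in EZH2 shRNA libraries (red) and control shRNA libraries (blue). Each symbol is a library and the bar is the mean ± SD (n = 3). SLC22A16, PXMP4 and SLC22A4 lie lower in all 3 EZH2 shRNA libraries than in any control, CPT1A lies higher, and the others overlap.

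SLC22A16 (ENSG00000004809; GRCh38 chromosome 6, 110424687 to 110476641, minus strand) is a carnitine transporter known mainly from testis and from leukemic blasts, where it also admits some anthracycline drugs. It had 4, 1 and 0 reads in EZH2 shRNA libraries 1, 3 and 4, against 66, 113 and 119 reads in control libraries 3, 4 and 5. In CPM it was at 0.0803, 0.0187 and 0 in the EZH2 shRNA libraries and 1.67, 2.17 and 2.80 in the controls. The highest EZH2 shRNA library was thus far under the lowest control. The ratio of summed counts, 5 against 298 and scaled for depth, was 0.0119 with an exact counting interval (95%) of 0.00385 to 0.0282, which covers counting error only. The fitted log2 fold change was -6.25 (SE 0.48). With so few reads on the EZH2 shRNA side single libraries set its size, and it was -7.87 without EZH2 library 1 and -5.44 without EZH2 library 4.

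Relative to its level, SLC22A16 also varied most of the 9 genes within the control group, at 2.21 ± 0.568 CPM (SD, n = 3). In deposited FPKM, which account for gene length, it was at 0.565 ± 0.144 in control cells (SD, n = 3), a level whose range overlapped that of SLC22A5. In CPM, which do not account for length, SLC22A16 was at 2.21 and SLC22A5 at 6.85 in control cells. Levels, orders and ratios of different genes in FPKM rest on the length used for each gene, which was not checked. In EZH2 shRNA cells SLC22A16 was at 0.00837 ± 0.0107 FPKM (SD, n = 3), the lowest of the 10 genes.

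SLC22A5 (ENSG00000197375), the high-affinity sodium-dependent carnitine importer of most tissues, did not follow. Its CPM values were 6.61, 7.17 and 7.37 in EZH2 shRNA libraries 1, 3 and 4 and 6.68, 7.21 and 6.67 in control libraries 3, 4 and 5. The groups overlapped, with a log2 fold change of 0.04 (SE 0.09). The FPKM ratio of SLC22A16 to SLC22A5 within a library averaged 0.0161 ± 0.0210 in EZH2 shRNA cells and 1.06 ± 0.287 in control cells (SD, n = 3 each).

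SLC22A4 (ENSG00000197208), a close relative of SLC22A5 best known as the ergothioneine transporter, lies beside SLC22A5 on the same strand of chromosome 5 (GRCh38, 132294394 to 132344190 for SLC22A4 and 132369752 to 132395614 for SLC22A5). It was at 3.62, 3.66 and 3.33 CPM in EZH2 shRNA libraries 1, 3 and 4, against 8.60, 8.60 and 8.06 CPM in control libraries 3, 4 and 5. All EZH2 shRNA libraries were under all controls, at 41.8% of the control level (log2 fold change -1.26, SE 0.10). The neighbours SLC22A4 and SLC22A5 therefore differed, and their FPKM ratio averaged 2.36 ± 0.225 in EZH2 shRNA cells and 5.78 ± 0.242 in control cells (SD, n = 3 each). The long non-coding MIR3936HG, which overlaps both on the other strand, had 0.345 CPM in EZH2 shRNA cells and 0.243 CPM in control cells and did not pass the test (log2 fold change 0.49, edgeR adjusted p = 0.303). The strand setting of the counts is not known, and reads of SLC22A4 and MIR3936HG may be mixed. MIR3936HG was given 98 reads over the 6 libraries, and the part of such mixing in the counts of SLC22A4 was not tested.

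SLC22A15 (ENSG00000163393), a less studied member that carries zwitterions, had 13.9, 12.0 and 13.9 CPM in EZH2 shRNA libraries 1, 3 and 4 and 12.3, 14.2 and 14.0 CPM in control libraries 3, 4 and 5. The groups overlapped and the log2 fold change was -0.03 (SE 0.08). Of the other SLC22 family genes, 19 of 20 listed were found in the table, and only SLC22A18 passed the filter. SLC22A18 had 0.977 ± 0.196 CPM in EZH2 shRNA cells and 0.678 ± 0.244 CPM in control cells (SD, n = 3 each) and did not pass the test (log2 fold change 0.48, SE 0.28, edgeR adjusted p = 0.169). It did pass without control library 4 (0.84, edgeR adjusted p = 0.0381) and after removal of chromosome medians (0.75, edgeR adjusted p = 0.0363).

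Of the 3 tested genes of the carnitine shuttle, CPT1A alone had groups that did not overlap. CPT1A (ENSG00000110090; GRCh38 chromosome 11, 68754620 to 68844410, minus strand), the rate-limiting step of long-chain fatty acid entry, was at 45.6, 45.0 and 42.7 CPM in EZH2 shRNA libraries 1, 3 and 4. Control libraries 3, 4 and 5 had 32.5, 31.0 and 32.4 CPM, all under every EZH2 shRNA library. The level was 139% of control (log2 fold change 0.47, SE 0.05). The 595 genes of chromosome 11 with a log2 CPM over 2 had a median log2 fold change of -0.27. With chromosome medians removed CPT1A was at 0.74.

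SLC25A20 (ENSG00000178537), the inner membrane carrier, had 11.7, 11.6 and 12.5 CPM in EZH2 shRNA libraries 1, 3 and 4 and 12.2, 11.4 and 11.8 CPM in control libraries 3, 4 and 5, and its log2 fold change was 0.02 (SE 0.07). CPT2 (ENSG00000157184), on the matrix side, had 39.6, 36.4 and 36.8 CPM in EZH2 shRNA libraries 1, 3 and 4 and 37.1, 35.9 and 35.9 CPM in control libraries 3, 4 and 5, with a log2 fold change of 0.05 (SE 0.05). For both genes the groups overlapped. The FPKM ratio of CPT1A to CPT2 averaged 1.82 ± 0.0701 in EZH2 shRNA cells and 1.35 ± 0.0288 in control cells (SD, n = 3 each), and that of CPT1A to SLC25A20 averaged 1.08 ± 0.0796 in EZH2 shRNA cells and 0.784 ± 0.0118 in control cells. CPT2 overlaps CZIB and the antisense gene AL606760.2 on the other strand, and some of its reads may belong to them.

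CRAT (ENSG00000095321), carnitine acetyltransferase of mitochondria and peroxisomes, was close to absent from these cells. It had 2, 10 and 11 reads in EZH2 shRNA libraries 1, 3 and 4 and 1, 3 and 3 reads in control libraries 3, 4 and 5. A count of 0 allows up to 3 reads, which corresponds to between 0.0353 and 0.0759 CPM per library, and CRAT was above it in 2 EZH2 shRNA libraries. The summed counts were 23 against 7, a depth-scaled ratio of 2.34 with an exact counting interval (95%) of 0.972 to 6.46, so a difference was not detectable at this depth. The 240 bases at the start of CRAT overlap PTPA, an abundant gene on the other strand, and some of these reads may belong to PTPA.

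**Figure D2:**
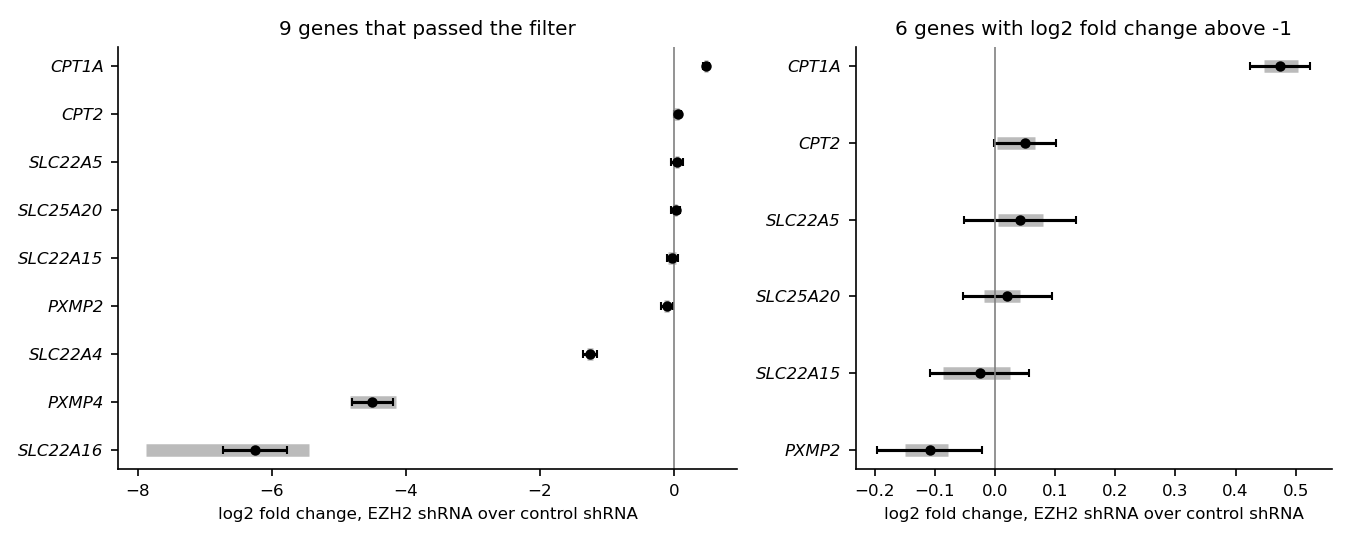
Log2 fold change (EZH2 shRNA over control shRNA, x axis) of the 9 genes that passed the filter, with the SE as the error bar and the range over fits without 1 library as the grey band. The right panel enlarges the 6 genes above -1. SLC22A16 at -6.25 and PXMP4 at -4.50 stand far from SLC22A5, SLC22A15, SLC25A20, CPT2 and PXMP2, which lie between -0.11 and 0.05.

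The peroxisomal membrane pair also parted. PXMP4 (ENSG00000101417; GRCh38 chromosome 20, 33702758 to 33720319, minus strand), a small membrane protein related to the Tim17 family, had 7, 5 and 5 reads in EZH2 shRNA libraries 1, 3 and 4 and 75, 111 and 98 reads in control libraries 3, 4 and 5. In CPM it was at 0.141, 0.0933 and 0.0589 in the EZH2 shRNA libraries and 1.90, 2.13 and 2.31 in the controls. No EZH2 shRNA library came near a control library. The ratio of summed counts was 0.0426 (exact 95% counting interval 0.0245 to 0.0695), and the fitted log2 fold change was -4.50 (SE 0.30), or 4.42% of the control level.

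PXMP2 (ENSG00000176894), a channel-forming protein of the Mpv17 family that lets small metabolites through the peroxisomal membrane, had 7.41, 7.71 and 7.21 CPM in EZH2 shRNA libraries 1, 3 and 4 and 7.97, 8.35 and 7.71 CPM in control libraries 3, 4 and 5. EZH2 library 3 and control library 5 met at 7.71 CPM, and the log2 fold change was -0.11 (SE 0.09). The FPKM ratio of PXMP4 to PXMP2 was 0.00325 ± 0.00136 in EZH2 shRNA cells and 0.0657 ± 0.00790 in control cells (SD, n = 3 each).

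Among all genes tested, 13 (0.0771%) had a log2 fold change of -4 or lower, SLC22A16 and PXMP4 among them. The gene whose centred log2 CPM profile over the 6 libraries was closest to that of SLC22A16 was PXMP4, with a root mean square difference of 0.615. OASL, an interferon-stimulated gene, and GTF2IRD1, a transcription factor, followed at 0.658 and 0.663. Closest to PXMP4 were the interferon-stimulated genes IFIT2, IFIT1 and OASL at 0.318, 0.376 and 0.399. SLC22A16 and PXMP4 were both chosen for their near loss, so their likeness is no independent result. These profiles hold mostly the difference between the 2 groups, and likeness over 6 libraries says nothing about shared control.

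Ordered by FPKM, EZH2 shRNA cells had the highest values for CPT1A at 6.71 ± 0.228 FPKM and SLC25A20 at 6.24 ± 0.260 FPKM (SD, n = 3 each), with overlapping ranges. PXMP2, CPT2, SLC22A15, SLC22A4 and SLC22A5 followed at 5.20, 3.70, 2.49, 1.29 and 0.547 FPKM, with neighbours in this order not overlapping. CRAT, PXMP4 and SLC22A16 came last at 0.0310, 0.0169 and 0.00837 FPKM and overlapped one another in turn. The order depends on the gene lengths behind the FPKM, which were not checked. In CPM, CPT2 at 37.6 stood before SLC25A20 at 11.9 and PXMP2 at 7.44 in EZH2 shRNA cells. In control cells SLC25A20 at 6.20 ± 0.206 FPKM and PXMP2 at 5.62 ± 0.227 FPKM stood before CPT1A at 4.86 ± 0.129 FPKM (SD, n = 3 each), and SLC22A4 at 3.09 FPKM stood before SLC22A15 at 2.55 FPKM. SLC22A16, SLC22A5, PXMP4 and CRAT closed the control order at 0.565, 0.535, 0.368 and 0.0134 FPKM. Even in control cells SLC22A16 and PXMP4 were thus weakly expressed, at the 21.5 and 16.3 percentile of the genes tested.

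The sequence upstream of the transcription start is shown for SLC22A16 and PXMP4, whose mRNA was nearly lost, and for SLC22A5, a carnitine transporter whose groups overlapped. The stretches are from RefSeq (GRCh38.p14), end before both the RefSeq start and the deposited gene span, and read 5′ to 3′ along the gene's strand. Capitals mark CpG dinucleotides for SLC22A16 (chr6:110476642-110476863, minus strand) and SLC22A5 (chr5:132369460-132369709, plus strand), and the CCAAT box, here in its reverse complement ATTGG, for PXMP4 (chr20:33720320-33720560, minus strand).
SLC22A16: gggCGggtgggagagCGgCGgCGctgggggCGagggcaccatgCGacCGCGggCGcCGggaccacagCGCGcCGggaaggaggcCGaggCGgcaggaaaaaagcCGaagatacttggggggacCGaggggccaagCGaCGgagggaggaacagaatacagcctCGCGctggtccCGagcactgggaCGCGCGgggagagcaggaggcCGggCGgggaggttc
SLC22A5: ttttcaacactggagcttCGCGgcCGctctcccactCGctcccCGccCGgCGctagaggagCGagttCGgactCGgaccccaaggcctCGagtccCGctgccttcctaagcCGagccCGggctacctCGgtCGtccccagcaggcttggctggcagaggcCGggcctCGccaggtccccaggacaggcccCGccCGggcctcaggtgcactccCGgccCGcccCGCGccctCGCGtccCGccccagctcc
PXMP4: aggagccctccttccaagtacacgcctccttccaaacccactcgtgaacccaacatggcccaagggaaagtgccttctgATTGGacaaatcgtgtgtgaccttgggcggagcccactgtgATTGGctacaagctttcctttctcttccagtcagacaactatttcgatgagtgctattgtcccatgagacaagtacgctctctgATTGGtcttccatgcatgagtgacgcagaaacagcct

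The SLC22A16 and PXMP4 promoters do not look alike. The printed stretch of SLC22A16 holds 27 CpG in 222 bases with a GC content of 73.4%, and that of SLC22A5 also holds 27 CpG, in 250 bases with 74.0% GC. The printed stretch of PXMP4 holds 7 CpG in 241 bases with 51.0% GC. In the full RefSeq windows of 300 bases, found for 9 of the 10 genes (not for CRAT), CpG numbered 39 in SLC22A16 and 15 in PXMP4, against a median of 14 over 35116 promoters. The letters CCAAT, searched on both strands, occurred 3 times in PXMP4 and 2 times in PXMP2 and in none of the other 7 windows. At least 1 CCAAT was found in 34.6% and at least 3 in 3.26% of all promoters. The GC box GGGCGG was found on either strand in 8 of the 9 windows, all but CPT1A, and in 45.0% of all promoters.

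The genes around SLC22A16 and PXMP4 moved far less than either. Within 2 Mb of SLC22A16, 39 other genes were tested. Of these 8 rose and 11 fell, beside 23.8% and 22.9% of all genes tested, with a median log2 fold change of -0.03. The next lowest of them was AC002464.1 (ENSG00000260188), annotated as antisense, which lies on the other strand 1265 bases upstream of SLC22A16 and is read away from it. AC002464.1 fell to 0.424 ± 0.121 CPM in EZH2 shRNA cells, against 1.26 ± 0.285 CPM in control cells (SD, n = 3 each; log2 fold change -1.60, SE 0.28, edgeR adjusted p = 0.000156). Of the next genes outward, CDK19, a kinase of the Mediator complex, fell by 0.76 on the log2 scale (edgeR adjusted p = 1.15e-07) and the pseudogene AL512430.3 was at 0.43 (edgeR adjusted p = 0.356). On the far side the splicing factor gene CDC40 was at -0.20 and the actin regulator WASF1 rose by 0.56 (edgeR adjusted p = 0.00377 and 1.55e-07). FIG4, a lipid phosphatase, was at -0.17, a call (edgeR adjusted p = 0.0442) that ended in 10 of 16 alternatives, among them DESeq2 (0.0618) and the fits without control libraries 3, 4 and 5 (0.154, 0.0539 and 0.0923) and without EZH2 libraries 1 and 4 (0.0793 and 0.113).

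Within 2 Mb of PXMP4, 60 other genes were tested. Of these 6 rose and 17 fell, beside 23.8% and 22.9% of all genes tested, with a median log2 fold change of -0.05. The lowest of them was RALY-AS1 at -1.05, so no other gene of the window approached PXMP4. Beside PXMP4, the zinc finger gene ZNF341 fell to 4.90 ± 0.405 CPM in EZH2 shRNA cells, against 6.97 ± 0.206 CPM in control cells (SD, n = 3 each; log2 fold change -0.50, edgeR adjusted p = 0.000607). The cell cycle factor E2F1 was at -0.13 (edgeR adjusted p = 0.01), which did not pass without control library 5 (0.0595). NECAB3, CHMP4B and the ribosomal pseudogene RPL31P2 did not pass, at 0.01, 0.01 and -0.43 (edgeR adjusted p = 0.867, 0.917 and 0.354). CBFA2T2, a corepressor, was at 0.15 (edgeR adjusted p = 0.0837) and passed without EZH2 library 1 (0.0103).

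**Figure D3:**
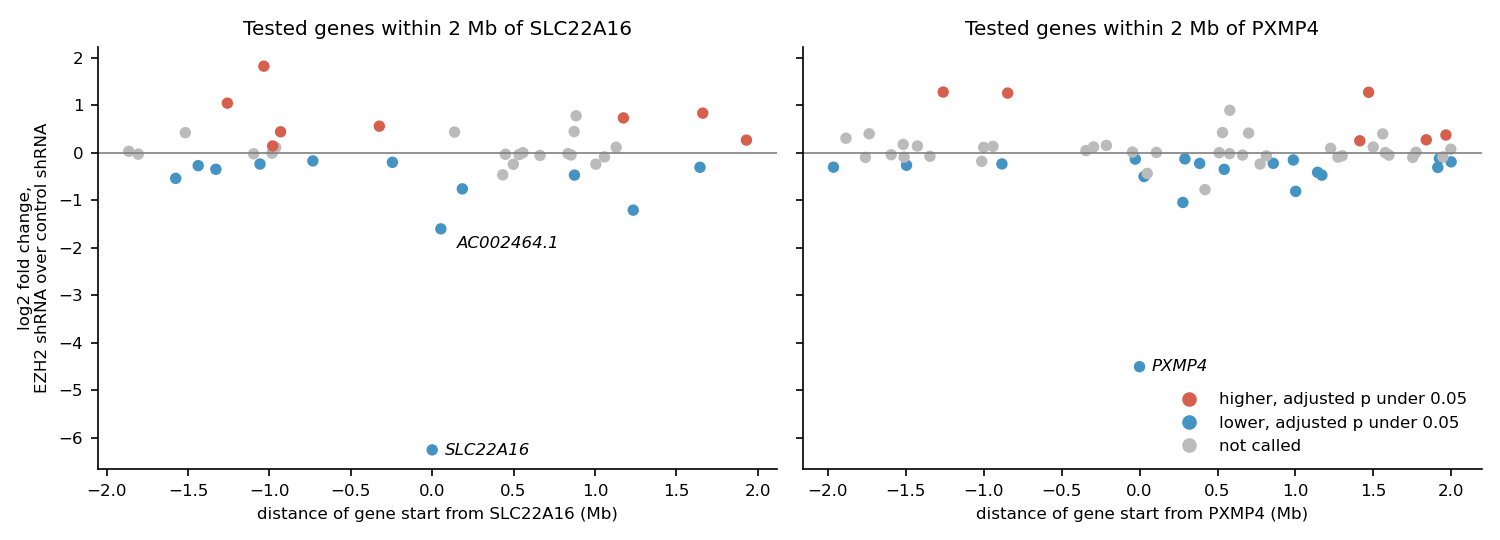
Log2 fold change (EZH2 shRNA over control shRNA, y axis) of every tested gene that starts within 2 Mb of SLC22A16 (left) or PXMP4 (right), by distance of its start in Mb. Red points were higher and blue points lower at an adjusted p under 0.05. SLC22A16 at -6.25 and PXMP4 at -4.50 lie under all their neighbours, the closest of which is AC002464.1 at -1.60.

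The rest of fatty acid oxidation moved in both directions by small amounts. Of 28 tested genes of mitochondrial fatty acid oxidation and other carnitine steps, 7 rose, 5 fell and 16 did not pass, so 42.9% were called, against 46.7% of all genes tested. Their median log2 fold change was 0.03, and none changed 2-fold. ACSL3, which activates long-chain fatty acids, fell to 98.5 ± 2.85 CPM in EZH2 shRNA cells, against 139.5 ± 0.496 CPM in control cells (SD, n = 3 each; log2 fold change -0.50, edgeR adjusted p = 2.22e-08). It lies on chromosome 2 and kept its call with chromosome medians removed, at -0.21. HADHA, the trifunctional protein's alpha subunit, was at -0.39 (edgeR adjusted p = 8.56e-07), a call that ended with chromosome medians removed (-0.10, adjusted p = 0.0668). The acyl-CoA dehydrogenase genes ACADSB, ACADVL and ACAD10 rose by 0.51, 0.32 and 0.44 (edgeR adjusted p = 3.85e-06, 3.92e-06 and 3.09e-05).

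Peroxin genes, which build the peroxisome and import its enzymes, rose in 4 of 16 cases and fell in 6, so 62.5% were called, against 46.7% of all genes tested (23.8% higher and 22.9% lower), with a median of -0.08. PEX5, the import receptor for most matrix enzymes, was at 75.7 ± 3.94 CPM in EZH2 shRNA cells and 53.3 ± 2.07 CPM in control cells (SD, n = 3 each; log2 fold change 0.51, edgeR adjusted p = 2.53e-07). PEX11A, which promotes peroxisome division, rose by 0.76 (edgeR adjusted p = 0.000191). PEX16 and PEX13 were at -0.36 and -0.31 (edgeR adjusted p = 3.57e-05 and 0.00174), but lie on chromosomes 11 and 2 and lost their calls with chromosome medians removed (-0.10 and -0.02, adjusted p = 0.174 and 0.858).

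Among genes listed as other peroxisomal membrane proteins and enzymes 11 of 37 rose and 14 fell, with a median of -0.06. Thus 67.6% were called, against 46.7% of all genes tested. The list was not limited to proteins of the peroxisome, and it counts ABCD4, which handles cobalamin in lysosomes. SLC27A2, which takes up and activates very long-chain fatty acids, was at 141, 129 and 138 CPM in EZH2 shRNA libraries 1, 3 and 4, against 58.3, 60.8 and 60.3 CPM in control libraries 3, 4 and 5. SLC27A2 thus rose with no overlap (log2 fold change 1.18, SE 0.04, edgeR adjusted p = 3.34e-12), and it was the only one of the list to rise at least 2-fold. The fatty acyl-CoA reductases of ether lipid synthesis parted, with FAR1 at -0.46 and FAR2 at 0.57 (edgeR adjusted p = 1.79e-07 and 2.05e-07). IDH1, an NADP-dependent isocitrate dehydrogenase, fell by 0.66 (edgeR adjusted p = 4.44e-09). FAR1 and IDH1 lie on chromosomes 11 and 2, and with chromosome medians removed they kept their calls at -0.19 and -0.37.

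PPAR receptors are nuclear receptors that fatty acids activate, and CPT1A is one of their known targets. Of 11 tested genes of the list of PPAR receptors, coactivators and targets, 3 rose and 2 fell, so 45.5% were called, close to the 46.7% of all genes tested, with a median of -0.04. UCP2, an inner mitochondrial membrane carrier, was at 107, 106 and 102 CPM in EZH2 shRNA libraries 1, 3 and 4, against 343, 333 and 322 CPM in control libraries 3, 4 and 5. UCP2 fell with no overlap (log2 fold change -1.66, SE 0.04, edgeR adjusted p = 1.47e-14). It lies on chromosome 11 and kept its call with chromosome medians removed, at -1.40. The receptors parted: PPARD fell to 5.28 ± 0.373 CPM in EZH2 shRNA cells, against 12.1 ± 0.556 CPM in control cells, and PPARA was at 29.3 ± 2.39 CPM in EZH2 shRNA cells and 19.2 ± 0.733 CPM in control cells (SD, n = 3 each). Their log2 fold changes were -1.19 and 0.61 (edgeR adjusted p = 1.37e-08 and 1.12e-06). PLIN2, a lipid droplet protein, rose by 0.32 (edgeR adjusted p = 0.000825), and the coactivator PPRC1 rose by 0.16 (edgeR adjusted p = 0.00704) but did not pass without EZH2 library 4 (0.0555). The classical targets ANGPTL4 and PDK4 had no read in any library.

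Of the 27 genes of these 5 lists that fell, 13 lie on chromosomes 2 and 11, and of the 25 that rose 0 do. In all, 18 tested genes of the lists lie there. Over all genes tested 22.9% fell and 23.8% rose, and the shares on chromosomes 2 and 11 alone were not counted. Over genes with a log2 CPM over 2, chromosome 2 was shifted to a median log2 fold change of -0.29 (722 genes) and chromosome 11 to -0.27. The part of this shift in the list counts was not tested beyond the fit with chromosome medians removed. SLC22A16, SLC22A4 and PXMP4 lie on chromosomes 6, 5 and 20, whose medians were -0.03, -0.02 and 0.00.

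**Figure D4:**
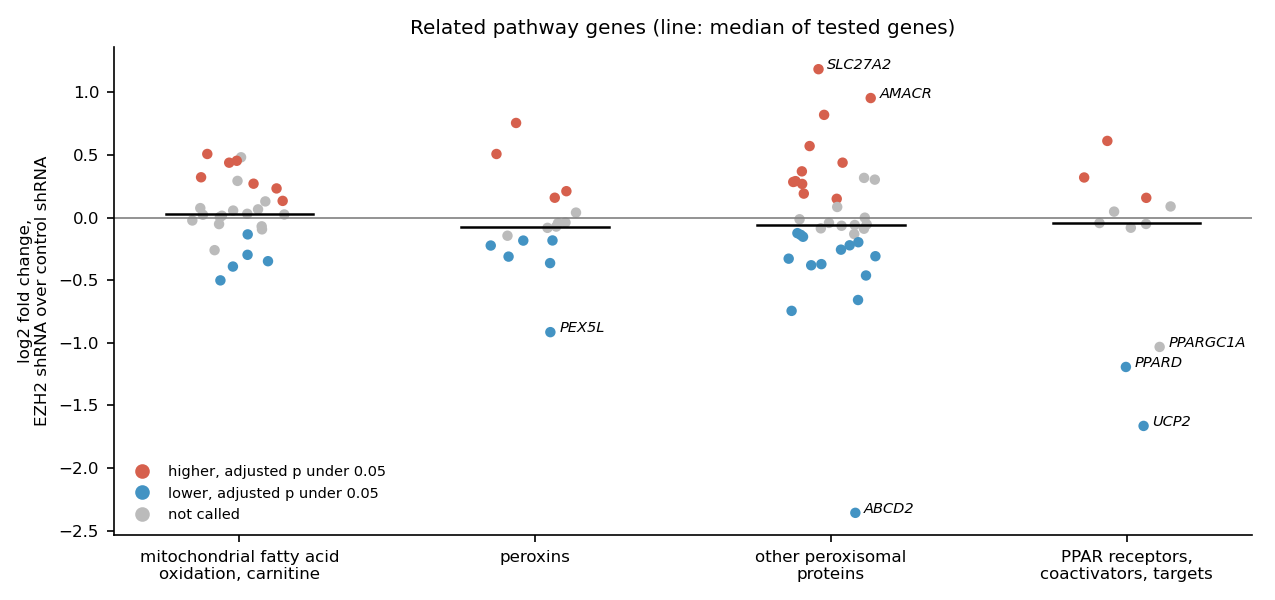
Log2 fold change (EZH2 shRNA over control shRNA, y axis) of the tested genes of 4 pathway lists (28, 16, 37 and 11 genes), with the median as a line. Red points were higher and blue points lower at an adjusted p under 0.05, and genes at least 0.9 from 0 are named. The medians lie between -0.08 and 0.03, and UCP2, PPARD and ABCD2 lie lowest.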

How the data were processed

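The authors deposited raw counts (whole reads per gene, not normalized) and FPKM values for the same 6 libraries. Genome build GRCh38 (hg38) and the tools DESeq2 1.24.0, R 3.6.1, STAR 2.5.2b and Picard 2.18.24 are listed in the submitters' processing notes without their roles. For the read counter, its annotation and its strand setting the record is "not given in the sources used here". Dividing the counts by the deposited FPKM and by DESeq2 size factors gave 1 constant per gene for 25514 of 25514 genes (tolerance 0.001), so the FPKM are the same counts rescaled by length and depth.

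Counts were filtered with filterByExpr, scaled with TMM and tested with the quasi-likelihood test of edgeR 4.0.16 (R 4.3.3, robust dispersions, group as the only term, Benjamini-Hochberg over 16859 genes, threshold 0.05). The SE of a log2 fold change is its size divided by the square root of F. Log2 CPM profiles used a prior count of 2. Chromosome medians used only genes with a log2 CPM over 2. The alternatives used DESeq2 1.42.0 and limma 3.58.1. The script was tested on simulated counts. Libraries of a group differed beyond sampling noise (chi-square per degree of freedom 3.02 to 15.9). No source says that they are separate cultures, and the spread behind the p-values may therefore be technical.

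The genes and the lists were chosen with earlier results of these data known. Named were the 10 genes, EZH2, cell type markers, up to 5 genes per list with the smallest p, the 3 tested neighbours on each side of SLC22A16 and PXMP4, and the 3 genes closest to each in profile. MIR3936HG, RALY-AS1, CROT, ANGPTL4, PDK4 and the genes in the closing section were named after their values were seen. A few list genes are not reported by name.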

Additional observations from a re-analysis of the deposited data

How the results depend on the processing

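The counts of calls and the fold changes of the 9 tested genes, the named list genes and the tested neighbours were recomputed under 16 alternatives, or 15 for SLC22A18, AC002464.1, AL512430.3 and RPL31P2, which a filter of 1 CPM in 3 libraries removed. The window counts, profile differences, FPKM ratios, markers, MIR3936HG and RALY-AS1 were not recomputed. The count of the 10 genes past the threshold was 4 in every alternative, and SLC22A16, PXMP4 and SLC22A4 stayed lower and CPT1A higher in all 16. SLC22A16 and PXMP4 were chosen for their near loss in these same data, so this stability is no independent support for it. The size for SLC22A16 depends on how low values are handled: its log2 fold change was -0.63 on log2 of FPKM + 1 and -2.60 on log2 of FPKM + 0.1, which shrink changes of weak genes, and -7.87 to -5.44 without 1 library. PXMP4 was at -0.43 and -2.00 on these FPKM scales and at -4.83 to -4.16 without 1 library. With the title numbers as a replicate block SLC22A16 was at -7.68, PXMP4 at -4.76 and all genes past the threshold numbered 7721, against 7866. It ended the call of FIG4 (edgeR adjusted p = 0.143) and gave one to CBFA2T2 (edgeR adjusted p = 0.00761). Correlations of deviations between the groups were 0.0359 for number 3 and 0.0122 for number 4, against -0.03 to 0.0219 for libraries of unlike number. With so few shared numbers these values cannot decide whether libraries were paired. CRAT could be fitted only without the filter (1.18). With chromosome medians removed 9 genes of mitochondrial fatty acid oxidation rose, against 7, and 3 fell, against 5. Of the other peroxisomal list 13 rose, against 11, and 10 fell, against 14. Of the peroxin genes 3 rose, against 4, and 5 fell, against 6. Of the PPAR list 4 rose, against 3, and 2 fell as before. In the same fit 1 of the other SLC22 genes rose, against 0, a count that ranged from 0 to 1 without 1 library. Over the 16 alternatives 6799 to 8122 genes passed. Depth limits SLC22A16, PXMP4 and CRAT most, with 5, 17 and 23 reads over the EZH2 shRNA libraries.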

Other observations

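ABCD2, a peroxisomal transporter of very long-chain acyl-CoA, was at 0.362, 0.299 and 0.330 CPM in EZH2 shRNA libraries 1, 3 and 4, against 1.57, 1.84 and 1.67 CPM in control libraries 3, 4 and 5. ABCD2 fell with no overlap (log2 fold change -2.36, edgeR adjusted p = 3.83e-07). Of other genes of its family, ABCD4, which handles cobalamin in lysosomes, rose by 0.28 (edgeR adjusted p = 0.000262), and ABCD3 did not pass (-0.05, edgeR adjusted p = 0.38).

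TMEM135, of the Tim17 family like PXMP4, was at -0.38 (edgeR adjusted p = 8.12e-05) and lies on chromosome 11. Its call ended with chromosome medians removed (-0.11, adjusted p = 0.156). MPV17L2, of the Mpv17 family to which PXMP2 belongs, was at -0.22 (edgeR adjusted p = 0.00179).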
